A study of Mus musculus with 6 samples.

Results

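The endoplasmic reticulum (ER) chaperones and the genes of the unfolded protein response (UPR) were examined as a module of 34 genes out of 54532 listed in the deposited gene tables. Members were found by matching Ensembl gene IDs to 34 gene symbols. By role they comprised 7 sensors and effectors of the response, 16 chaperones and folding enzymes, 8 genes of ER-associated degradation and 3 genes of the translocon, the channel through which new proteins enter the ER. The symbols matched 35 gene IDs, because Ddit3 has a second ID that was listed at 0 in all 4 gene tables and was set aside. Of the 34 members, 33 reached the minimum level for testing, and Derl3 did not.

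The libraries came from wild-type 3T3-L1 cells, an established mouse line used to model fat cell formation, labelled as adipocytes. One group was an untreated control (control 1, 2 and 3) and the other was exposed to chronic intermittent hypoxia (CIH 1, 2 and 3), that is, to repeated episodes of low oxygen. Both groups were grown in 10% fetal bovine serum, given insulin to induce differentiation, and held in medium containing 0.1 µM insulin to day 8; the sources used here do not give oxygen levels or cycle lengths. The study asked which messenger RNAs differ between the 2 groups, and since the labels name no separate cultures, p-values reflect only how far these libraries vary, and that variation may be technical.

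The ER folds secreted and membrane proteins. When unfolded proteins accumulate, the chaperone BiP leaves the 3 sensor proteins IRE1 (gene Ern1), PERK (Eif2ak3) and ATF6 (Atf6), which then raise the transcription of chaperones and degradation genes and slow protein synthesis. IRE1 acts by splicing the messenger of Xbp1, ATF6 by being cut into a transcription factor, and PERK by phosphorylating the initiation factor eIF2alpha, which favours translation of ATF4 and, after it, expression of the stress-linked factor CHOP (Ddit3). Adipocytes secrete hormones and lipid-handling proteins in quantity and depend on this machinery. The values used here are summed per gene and do not separate the splice forms of Xbp1.

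Values were FPKM, fragments scaled to exon length and to a measure of library size. For replicates 1 and 2 that measure was on the median-of-ratios scale, since the factors of the 4 libraries were equal (1.0036). The 4 libraries of replicates 1 and 2 were deposited as gene tables, resting on an estimated 26400000 to 28500000 assigned fragments each. Their log2 values correlated across genes at 0.992 between the controls and 0.993 between the CIH libraries. Control 3 and CIH 3 were deposited in another form, with several entries per gene and unknown depth, and correlated with control 1 and CIH 1 at 0.781 and 0.644. Levels were therefore compared within each kind of table. Adipocyte markers were abundant in 5 libraries (summed FPKM of 12 genes 8647 to 33059) and were 775 in CIH 3, where all 11 tested markers were at least 2-fold lower than in control 3 and all 9 fibroblast or preadipocyte markers at least 2-fold higher (summed FPKM 836 in control 3 and 5005 in CIH 3). In replicates 1 and 2 the same lists moved less. The adipocyte sum was 9694 and 10088 in the controls and 9667 and 8647 in CIH, with 1 of 11 genes higher and 4 lower. The fibroblast sum was 368 and 389 in the controls and 577 and 575 in CIH, with 6 of 9 higher and 2 lower. Over all genes tested in replicates 1 and 2, 20.2% were higher and 21.7% lower by the test given below. In the replicate 3 pair 23.6% of genes were at least 2-fold higher and 11.3% at least 2-fold lower. The 6 macrophage markers summed to 9.29, 9.19 and 6.30 FPKM in controls 1, 2 and 3 and to 7.71, 8.22 and 12.5 in CIH 1, 2 and 3; Cd14 and Cd68 made up most of this, Lyz2 was 0.285 in control 3 and 2.65 in CIH 3, Adgre1 was listed at 0 in all 6 libraries and Ptprc did not exceed 0.00199. The 4 endothelial markers summed to 0.302, 0.303 and 0.473 FPKM in the controls and 0.221, 0.166 and 0.719 in CIH, with Kdr at 0 in 5 libraries. The part of these shifts in cell markers in the results that follow was not tested.

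In replicates 1 and 2, members of the module that differed were mostly lower in CIH. Of the 33 tested, 11 fell, 1 rose and 21 did not pass the test. The test was limma on log2(FPKM + 1), a scale that understates the change of genes at low levels, with Benjamini-Hochberg adjustment over 10981 genes and a call at an adjusted p under 0.05. Among all genes tested, 21.7% fell and 20.2% rose, against 33.3% and 3.03% of the members. The median log2 change was −0.02 over the members and −0.01 over all genes, so that the calls lay in a minority of the members. Both CIH libraries lay below both controls for 15 members (38.4% of all genes) and above both for 8 (35.9% of all genes), with overlap in the other 10. When the values were scaled by totals without mitochondrial-encoded genes, calls over all genes shifted from 2216 higher and 2387 lower to 1836 and 2834, a fall in the higher share from 48.1% to 39.3%. Of the calls, 7 of 12 held in all 4 fits that left out 1 library (Ern1, Atf6, Xbp1, Ddit3, Dnajb9, Pdia6 and Sel1l), and the number that fell went to 7 without CIH 1, 6 without CIH 2 and 5 with no filter on level. When control 3 and CIH 3 were fitted together with the other 4 libraries, limma called 0 members (1 at an unadjusted p under 0.05; 7 with a term for replicate 3). In bulk RNA, fewer cells expressing a gene and less RNA per cell cannot be told apart.

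These shares of all genes, 21.7% lower and 20.2% higher, are the background for each count by role. Of the 7 sensors and effectors, 5 fell (71.4%) and 1 rose (14.3%), with a median of −0.42. Of 16 chaperones and folding enzymes, 3 fell (18.8%, near the background) and 0 rose by limma (3 higher at an unadjusted p under 0.05), with a median of −0.01. Of 7 tested degradation genes, 3 fell (42.9%) and 0 rose (0 higher at an unadjusted p under 0.05), with a median of −0.02. The 3 translocon genes gave 0 calls in limma in either direction, also at an unadjusted p under 0.05, with a median of 0.05. With upper-quartile scaling 3 chaperones were called higher and 3 lower, and with scaling by totals 1 and 5; the counts of the other roles did not move with either scaling. The plot of changes by role shows these groups gene by gene.

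**Figure D1:**
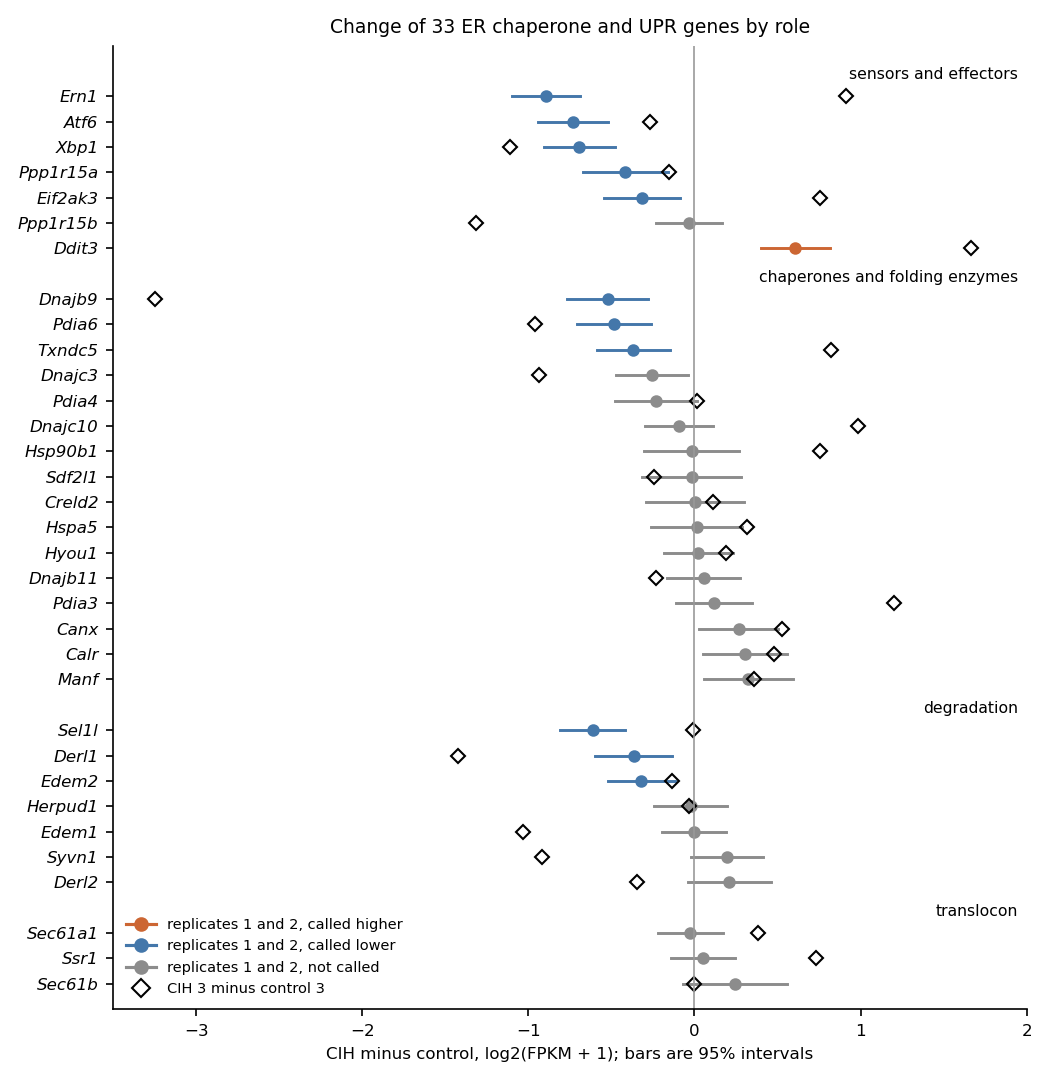
Log2 change of 33 members, CIH minus control on the log2(FPKM + 1) scale, by role. Circles with 95% intervals are replicates 1 and 2 (blue fell, orange rose, grey not called) and open diamonds are the single pair of control 3 and CIH 3; 5 of the 7 sensors and effectors are blue, and most chaperones are grey and lie near 0.

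In the replicate 3 pair, 16 members were higher and 17 lower in CIH 3 than in control 3. That pair has 1 library per group, so there is no replicate check and no test. A difference of at least 2-fold on the log2(FPKM + 1) scale was seen upward in 2 members, Ddit3 and Pdia3 (23.6% of 11620 genes), and downward in 5, Dnajb9, Derl1, Ppp1r15b, Xbp1 and Edem1 (11.3% of genes). The median over all genes was 0.31 in this pair, where 63.6% of genes were higher in CIH 3, and the members' median was −0.00, or −0.31 relative to all genes. Mitochondrial-encoded genes made up 43.7% of summed FPKM in control 3 and 22.4% in CIH 3, against 11.2% to 16.3% in replicates 1 and 2. With scaling by totals without these genes the members' median was 0.16, and −0.30 relative to all genes. The sign of the median taken by itself thus rests on the scaling. Ratios given for single genes in this pair are of the values as deposited. Of the 11 members that fell in replicates 1 and 2, 8 were lower in CIH 3 and 3 were higher (48.3% of all genes that fell were lower in CIH 3).

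The 3 sensors fell together in replicates 1 and 2. Ern1, the kinase and endonuclease IRE1 (ENSMUSG00000020715, chromosome 11, 106394650 to 106487852, GRCm38), was 7.19 and 7.16 FPKM in controls 1 and 2 and 3.27 and 3.52 in CIH 1 and 2. Both CIH libraries lay at about the same level, well under both controls, and the log2 change was −0.90 (SE 0.086, limma adjusted p = 0.000381). In the replicate 3 pair the order was the opposite, with 5.79 FPKM in control 3 and 11.8 in CIH 3, a ratio of 2.03.

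Atf6, the membrane-bound transcription factor (ENSMUSG00000026663, chromosome 1, 170704674 to 170867771), was 15.6 and 14.8 FPKM in controls 1 and 2 and 8.33 and 9.22 in CIH 1 and 2. It was lower in CIH in both table forms, though by less in replicate 3, where control 3 was 12.2 and CIH 3 was 9.97. The log2 change in replicates 1 and 2 was −0.73 (SE 0.089, limma adjusted p = 0.000998).

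Eif2ak3, the eIF2alpha kinase PERK (ENSMUSG00000031668, chromosome 6, 70844515 to 70905245), was 5.90 and 6.84 FPKM in controls 1 and 2 and 4.80 and 5.01 in CIH 1 and 2. The groups did not overlap, but the 2 controls differed from each other about as much as control 1 differed from CIH 2, and the log2 change was −0.32 (SE 0.097, limma adjusted p = 0.0347). The call did not hold with the filter set over all 6 libraries (adjusted p = 0.0544), nor without control 2 (0.133), CIH 1 (0.162) or CIH 2 (0.092), fits in which the lone library of a group is assumed to vary like the other group. In the replicate 3 pair Eif2ak3 was 7.03 in control 3 and 12.6 in CIH 3. Ern1 and Eif2ak3 were thus lower in CIH in the gene tables and higher in CIH 3, the library in which adipocyte markers were low and fibroblast markers high; the part of those markers was not tested.

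The sum of the 3 sensors was 28.7 and 28.8 FPKM in controls 1 and 2, 16.4 and 17.8 in CIH 1 and 2, 25.0 in control 3 and 34.3 in CIH 3. Sensors were among the least abundant members: in the controls of replicates 1 and 2, Ern1 (mean 7.17 FPKM) and Eif2ak3 (6.37) stood at ranks 32 and 33 of 34, above Derl3 alone, and Atf6 (15.2) at rank 26. The neighbouring ranks of Ern1 and Eif2ak3 were close, with control 2 of Eif2ak3 (6.84) just under both Ern1 controls.

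Downstream of the sensors, Xbp1 and Ddit3 moved in opposite directions in both table forms. Xbp1, the transcription factor activated by IRE1 (ENSMUSG00000020484, chromosome 11, 5520659 to 5525893), was 98.9 and 99.8 FPKM in controls 1 and 2 and 62.7 and 59.5 in CIH 1 and 2. The 2 libraries of each group agreed closely, and the log2 change was −0.69 (SE 0.090, limma adjusted p = 0.00129). Control 3 was 60.3 and CIH 3 was 27.5, a ratio of 2.20 in the same direction.

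Ddit3, which encodes the stress-linked transcription factor CHOP (ENSMUSG00000025408, chromosome 10, 127290774 to 127296288), was the single member that rose. It was 28.2 and 26.9 FPKM in controls 1 and 2, 43.9 and 41.0 in CIH 1 and 2, 55.9 in control 3 and 179.6 in CIH 3. CIH was above control in both table forms, with a log2 change of 0.61 (SE 0.088, limma adjusted p = 0.00206) in replicates 1 and 2 and a ratio of 3.21 in the replicate 3 pair. The FPKM of Ddit3 per FPKM of Xbp1, both per length of exon, was 0.285 and 0.269 in controls 1 and 2 against 0.701 and 0.689 in CIH 1 and 2, and 0.927 in control 3 against 6.54 in CIH 3. This ratio was formed after the values were seen and was not tested. On the opposite strand Ddit3 overlaps Mars, the methionine transfer RNA synthetase, which shares 68 of the 1713 exon bases of Ddit3; Mars fell (log2 change −0.33, SE 0.086, limma adjusted p = 0.0218), the opposite direction to Ddit3. The sources used here do not say whether counting used strand.

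The 2 regulatory subunits that bring protein phosphatase 1 to eIF2alpha, and so reverse the action of PERK, are both members; the difference between them was not tested. Ppp1r15a, the stress-inducible subunit GADD34 (ENSMUSG00000040435, chromosome 7, 45522916 to 45526268), was 18.7 and 22.6 FPKM in controls 1 and 2, 15.7 and 14.7 in CIH 1 and 2, 13.5 in control 3 and 12.0 in CIH 3. It fell by 0.42 on the log2 scale (SE 0.108, limma adjusted p = 0.0202), and the call did not hold without control 2 (adjusted p = 0.062), CIH 1 (0.0588) or CIH 2 (0.0881). Ppp1r15b, the constitutive subunit CReP, was 39.3 and 38.1 FPKM in controls 1 and 2 and 37.3 and 38.2 in CIH 1 and 2, with overlapping groups and an interval of −0.23 to 0.16 for the log2 change (adjusted p = 0.761). In the replicate 3 pair it was 53.0 in control 3 and 20.7 in CIH 3, a ratio of 2.56. The plot of levels by library shows the sensors, Xbp1, Ddit3, Ppp1r15a, Hspa5 and Dnajb9.

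**Figure D2:**
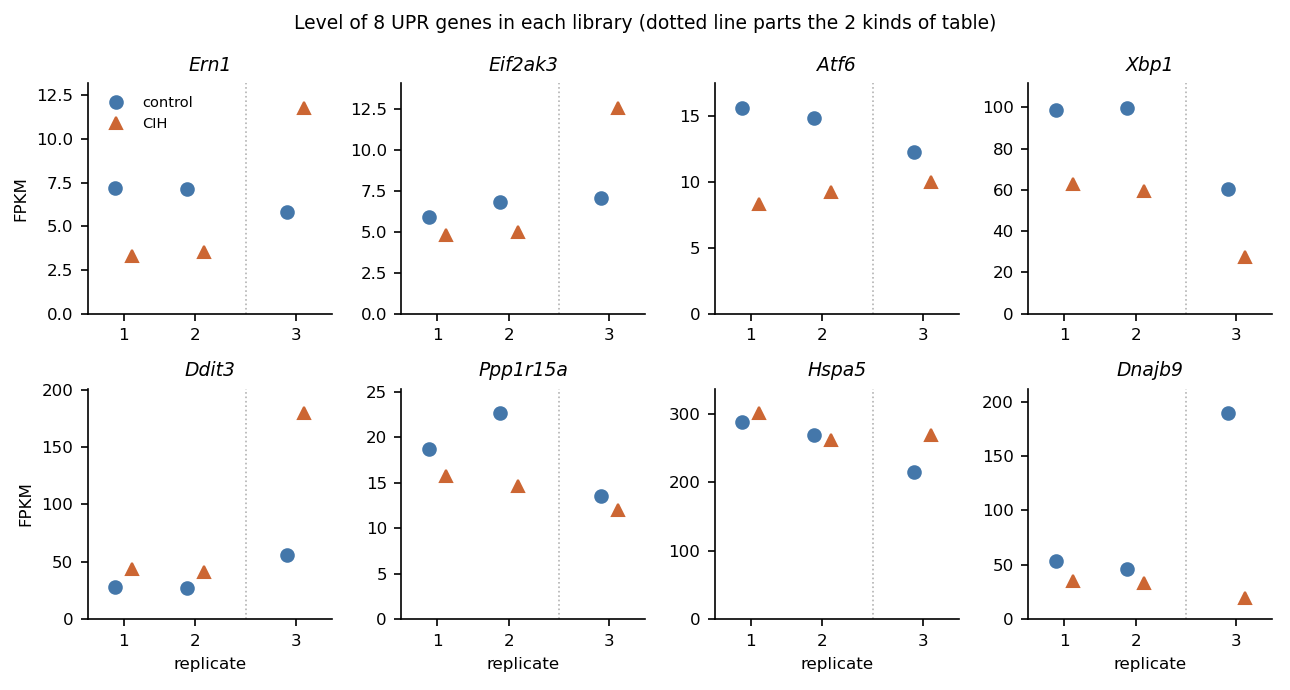
FPKM of 8 members in each of the 6 libraries, with a dotted line between the gene tables (replicates 1 and 2) and the replicate 3 pair. Blue circles are control and orange triangles CIH, each a single library; Ern1 and Eif2ak3 are lower in CIH left of the line and higher to its right, while Xbp1 and Dnajb9 are lower and Ddit3 higher on both sides.

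The best known target genes of ATF6 and of spliced XBP1 carry an ER stress response element (ERSE) near their start. It consists of CCAAT and CCACG separated by 9 bases, so that the motif searched was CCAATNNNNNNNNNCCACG, on both strands. In RefSeq promoters (GRCm38.p6, 250 bases before to 50 after the start), 39 of 32851, or 0.119%, held a match. Promoters were listed for 28 of the 34 members, and 9 members had a match: Calr, Canx, Creld2, Derl3, Dnajc3, Hsp90b1, Hspa5, Pdia6 and Syvn1. The related ERSE-II, ATTGGNCCACG, was found in 12 promoters (0.0365%), among them Dnajb11 and Herpud1. These motifs were chosen knowing that the pathway uses them, and a match describes letters in a window, not a bound site. The matches are printed here because 7 of the 9 belong to chaperones or folding enzymes, the group with few calls; both parts of the motif are in capitals, with 12 bases on either side, 5′ to 3′ on the strand of the gene. Where the motif lies on the opposite strand, they read CGTGG and ATTGG.
Hspa5, chr2:34772013-34772055, + strand: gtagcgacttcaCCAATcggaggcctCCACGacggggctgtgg
Calr, chr8:84847063-84847105, − strand: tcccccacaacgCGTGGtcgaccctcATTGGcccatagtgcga
Canx, chr11:50325788-50325830, − strand: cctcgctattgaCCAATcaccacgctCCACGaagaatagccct
Creld2, chr15:88819508-88819550, + strand: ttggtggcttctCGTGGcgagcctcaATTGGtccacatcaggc
Dnajc3, chr14:118937815-118937857, + strand: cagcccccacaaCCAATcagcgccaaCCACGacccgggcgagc
Pdia6, chr12:17266479-17266521, + strand: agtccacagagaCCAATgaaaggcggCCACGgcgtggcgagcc
Syvn1, chr19:6046520-6046562, + strand: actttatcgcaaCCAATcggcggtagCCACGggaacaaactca
Derl3, chr10:75893230-75893272, + strand: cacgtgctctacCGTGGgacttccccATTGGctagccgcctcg
Hsp90b1, chr10:86705521-86705668, − strand, with 2 matches: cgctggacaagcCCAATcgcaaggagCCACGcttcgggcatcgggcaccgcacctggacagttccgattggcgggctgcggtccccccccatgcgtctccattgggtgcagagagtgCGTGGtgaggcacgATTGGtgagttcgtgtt
Herpud1, chr8:94386365-94386399, + strand, ERSE-II in capitals: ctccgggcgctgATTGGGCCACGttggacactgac

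Of the 8 tested members with an ERSE, 1 fell (Pdia6) and 0 rose by limma in replicates 1 and 2, with a median log2 change of 0.01 and a range of −0.48 to 0.30; Calr and Canx were among those higher at an unadjusted p under 0.05. Adding the ERSE-II genes gave 10 tested members with the same median and 1 that fell. Of the 17 members whose promoter held neither element, 8 fell and 1 rose, with a median of −0.23 and a range of −0.90 to 0.61. Over all genes tested, 21.7% fell and 20.2% rose. In the replicate 3 pair the medians were 0.04 with either element and −0.00 without. These groups were compared after the values were seen and no test was made between them. They also differ by role: most members with an element are chaperones or folding enzymes. Ern1, Eif2ak3, Xbp1, Ddit3 and Ppp1r15a, of the sensors and effectors, are all among those without. Atf6 and Derl1, which fell, had no promoter listed and are in neither group. The part of role in the difference between groups was not tested. A UPR element core, TGACGTGG, was found in the promoter of Txndc5 (0.676% of all promoters), and the composite C/EBP-ATF element TGATGCAA, recognised by CHOP and ATF4 dimers, in that of Herpud1 (0.895%). The map of matches sets each position beside the change of its gene.

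**Figure D3:**
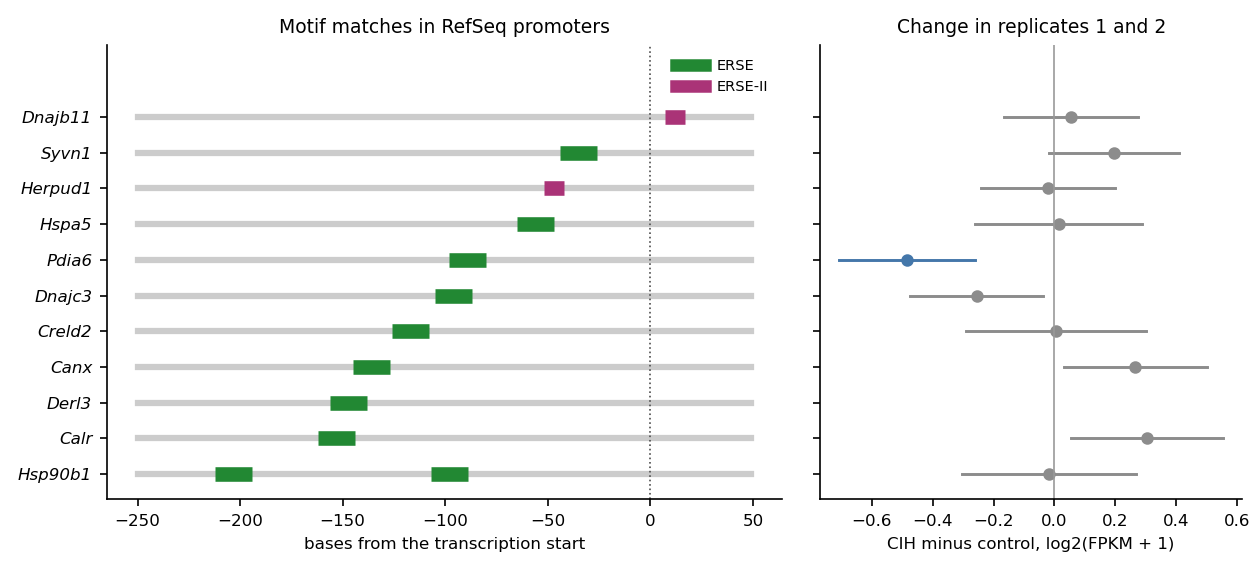
Left, position of ERSE (green) and ERSE-II (purple) matches in the promoters of 11 members, in bases from the RefSeq transcription start; right, log2 change of the same genes in replicates 1 and 2 with 95% intervals, on the log2(FPKM + 1) scale. Matches lie from −212 to 17, Pdia6 alone is called (blue, lower), and Derl3 has no change because it was too low to test.

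Hspa5, which encodes BiP, the central ER chaperone and a widely used reporter of the UPR (ENSMUSG00000026864, chromosome 2, 34771970 to 34777547), overlapped between groups. It was 288 and 269 FPKM in controls 1 and 2, 301 and 262 in CIH 1 and 2, 216 in control 3 and 269 in CIH 3. In replicates 1 and 2 the 2 CIH libraries lay on either side of control 2, and the log2 change was 0.01 with a 95% interval of −0.26 to 0.29 (SE 0.116, limma adjusted p = 0.935). Its sign turned to −0.06 with scaling by totals and to −0.04 and −0.09 without control 2 and without CIH 1, all within that interval. In the replicate 3 pair the ratio was 1.25, but relative to the median of all genes in that pair the log2 change was 0.01. Hspa5 had the highest mean of the 34 members in controls 1 and 2, 278 ± 13.5 FPKM (SD, n = 2).

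Partners of BiP also overlapped between the groups of replicates 1 and 2. Hsp90b1, the ER HSP90 (GRP94), was 118 and 98.8 FPKM in controls 1 and 2, 113 and 101 in CIH 1 and 2, 173 in control 3 and 293 in CIH 3. Its groups overlapped in replicates 1 and 2 (interval of the log2 change −0.30 to 0.27), and CIH 3 was above control 3 by a ratio of 1.69. Hyou1, an ER HSP70-like protein and nucleotide exchange factor for BiP, was 21.5 and 23.7 FPKM in controls 1 and 2, 23.2 and 22.7 in CIH 1 and 2, 22.8 in control 3 and 26.2 in CIH 3, the flattest of these profiles. Sdf2l1, Creld2 and Dnajb11 also overlapped between groups in replicates 1 and 2, with log2 changes of −0.02, 0.01 and 0.06.

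Among the J-domain proteins, which stimulate BiP's ATPase, Dnajb9 fell. Dnajb9, or ERdj4, a target of spliced XBP1 that helps return BiP to IRE1 (ENSMUSG00000014905, chromosome 12, 44205559 to 44210326), was 53.4 and 45.7 FPKM in controls 1 and 2 and 35.2 and 33.0 in CIH 1 and 2. It was 189 in control 3 and 19.0 in CIH 3, a ratio of 9.96 and the widest gap of any member in that pair. Dnajb9 was thus lower in CIH in both table forms, with a log2 change of −0.52 in replicates 1 and 2 (SE 0.105, limma adjusted p = 0.00742). When all genes were tested with no filter on level, its limma adjusted p was 0.0537. Other members that fell also lost the call in that fit: Eif2ak3 (0.121), Ppp1r15a (0.099), Txndc5 (0.0545), Derl1 (0.0705) and Edem2 (0.0643). Dnajc3, a co-chaperone also known as an inhibitor of PERK, was 23.7 and 21.6 FPKM in controls 1 and 2 and 19.6 and 18.0 in CIH 1 and 2, a difference of −0.26 that did not pass the test (adjusted p = 0.0614). In replicate 3 it was 18.4 in control and 9.16 in CIH. Dnajc10, an ER disulphide reductase with a J domain, was lower by 0.09 in replicates 1 and 2 without passing the test (log2 change −0.09, adjusted p = 0.41), at 20.7 in control 3 and 41.8 in CIH 3.

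The lectin chaperones, which hold glycoproteins during folding, were higher in CIH in both table forms, but did not pass the test. Calr, calreticulin, was 247 and 251 FPKM in controls 1 and 2, 323 and 294 in CIH 1 and 2, 327 in control 3 and 455 in CIH 3. Both CIH libraries lay above both controls in replicates 1 and 2, and the log2 change was 0.30 with a 95% interval of 0.05 to 0.55 (SE 0.106, limma adjusted p = 0.0546). Canx, calnexin, was 130.3 and 117 FPKM in controls 1 and 2, 149.8 and 148 in CIH 1 and 2, 140.3 in control 3 and 203 in CIH 3 (log2 change 0.27, adjusted p = 0.069). Manf, a small secreted protein retained by BiP, was 12.6 and 14.1 FPKM in controls 1 and 2, 18.7 and 15.3 in CIH 1 and 2, 30.1 in control 3 and 38.8 in CIH 3 (log2 change 0.33, adjusted p = 0.055). These 3 genes sat at the edge of the threshold: with upper-quartile scaling all 3 were called higher (adjusted p = 0.021, 0.0393 and 0.0321), with scaling by totals Calr alone (0.0478), and Manf was called without control 2 (0.0268) or without CIH 2 (0.0313). Relative to the median of all genes in the replicate 3 pair, Calr was at 0.17, Canx at 0.22 and Manf at 0.05 on the log2 scale. Manf overlaps Dcaf1 and Rbm15b in the annotation, so part of its signal is uncertain.

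Of the protein disulphide isomerases, which form and exchange disulphide bonds, Pdia6 and Txndc5 fell and Pdia3 and Pdia4 did not pass the test; differences between them were not tested. Pdia6 (ENSMUSG00000020571, chromosome 12, 17266545 to 17284770), which also binds IRE1, was 62.3 and 64.4 FPKM in controls 1 and 2, 47.6 and 42.6 in CIH 1 and 2, 89.6 in control 3 and 45.5 in CIH 3. It was lower in CIH in both table forms, with a log2 change of −0.48 in replicates 1 and 2 (SE 0.095, limma adjusted p = 0.00695). Txndc5 (ENSMUSG00000038991, chromosome 13, 38500079 to 38528824), an isomerase with thioredoxin domains, was 88.6 and 95.5 FPKM in controls 1 and 2, 72.6 and 69.5 in CIH 1 and 2, 54.9 in control 3 and 97.9 in CIH 3. It fell in replicates 1 and 2 (log2 change −0.37, SE 0.094, limma adjusted p = 0.0186), was not called without control 2 (adjusted p = 0.073), CIH 1 (0.06) or CIH 2 (0.0828), and was higher in CIH 3 by a ratio of 1.78. Pdia3, the isomerase ERp57 that works with calreticulin and calnexin, was 120.1 and 114 FPKM in controls 1 and 2, 132 and 123 in CIH 1 and 2, 103 in control 3 and 238 in CIH 3. Its change in replicates 1 and 2 did not pass the test (log2 change 0.12, adjusted p = 0.359), while the ratio in replicate 3 was 2.32. Pdia4 was 132 and 125 FPKM in controls 1 and 2 and 116 and 103 in CIH 1 and 2 (log2 change −0.23, adjusted p = 0.113), and was level in replicate 3 with 108 and 109.

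Together the 16 chaperones and folding enzymes summed to 1378 and 1328 FPKM in controls 1 and 2, 1441 and 1309 in CIH 1 and 2, 1557 in control 3 and 1904 in CIH 3. The groups overlapped in replicates 1 and 2, and CIH 3 was higher than control 3. In replicate 3, 11 of the 16 were higher and 5 lower, where 63.6% of all genes were higher. Their median was 0.26, or −0.05 relative to all genes. The distance between the mean log2 level of the chaperones and that of the 3 sensors was 2.49 and 2.45 in controls 1 and 2 and 3.18 and 2.95 in CIH 1 and 2, without overlap. It was 2.78 in control 3 and 2.32 in CIH 3, the opposite order. This distance was formed after the values were seen and was not tested.

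Degradation genes, whose products carry misfolded proteins back to the cytosol for the proteasome, fell in 3 of 7 tested cases, where 21.7% of all genes fell. Sel1l, the scaffold of the HRD1 ubiquitin ligase (ENSMUSG00000020964, chromosome 12, 91806043 to 91849157), was 24.9 and 24.6 FPKM in controls 1 and 2, 15.4 and 16.3 in CIH 1 and 2, 28.3 in control 3 and 28.2 in CIH 3. The groups were well apart in replicates 1 and 2 (log2 change −0.61, SE 0.083, limma adjusted p = 0.00155) and level in the replicate 3 pair. Syvn1, which encodes HRD1 itself, was not called: it was 26.1 and 27.0 FPKM in controls 1 and 2, 32.1 and 29.0 in CIH 1 and 2, 32.0 in control 3 and 16.5 in CIH 3. Syvn1 was higher in CIH in replicates 1 and 2 without passing the test (log2 change 0.20, adjusted p = 0.123) and lower in CIH 3 by a ratio of 1.94. Syvn1 overlaps Mrpl49 on the opposite strand, a gene with a mean of 38.4 FPKM in these libraries, so its values are uncertain.

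Of the derlins, membrane proteins of the exit channel, Derl1 fell. Derl1 (ENSMUSG00000022365, chromosome 15, 57869502 to 57892448), the third most abundant member in controls 1 and 2, was 132 and 135 FPKM there, 109 and 98.4 in CIH 1 and 2, 114 in control 3 and 41.8 in CIH 3. It was lower in CIH in both table forms (log2 change −0.37, SE 0.099, limma adjusted p = 0.0229), but was not called without control 1 (0.0573), control 2 (0.0664) or CIH 2 (0.115). Derl2 was 8.06 and 7.34 FPKM in controls 1 and 2 and 9.90 and 8.27 in CIH 1 and 2 (log2 change 0.21, adjusted p = 0.151), with 31.2 in control 3 and 24.4 in CIH 3. Derl2 overlaps Mis12 (10.6 FPKM) on the opposite strand. Derl3, a derlin of secretory tissues, was between 0.0780 and 0.192 FPKM in replicates 1 and 2, with as few as an estimated 4 fragments in a library. It was 0.342 and 0.413 in control 3 and CIH 3, and was too low to compare.

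Edem1 and Edem2 trim mannose from misfolded glycoproteins and so mark them for removal. Edem2 (ENSMUSG00000038312, chromosome 2, 155701677 to 155729475) was 10.2 and 10.3 FPKM in controls 1 and 2, 8.38 and 7.71 in CIH 1 and 2, 14.7 in control 3 and 13.3 in CIH 3. It fell in replicates 1 and 2 (log2 change −0.32, SE 0.085, limma adjusted p = 0.0218), with the call lost without CIH 1 (0.0626) and without CIH 2 (0.13). Edem1 was 22.1 and 22.0 FPKM in controls 1 and 2 and 22.1 and 21.8 in CIH 1 and 2, an interval of −0.20 to 0.19 for the log2 change, yet was 37.1 in control 3 and 17.6 in CIH 3. Herpud1, an ER membrane protein that recruits the HRD1 complex, differed little in both table forms: 40.1 and 36.2 FPKM in controls 1 and 2, 38.6 and 36.5 in CIH 1 and 2, 31.7 in control 3 and 30.9 in CIH 3.

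The degradation genes summed to 264 and 263 FPKM in controls 1 and 2, 235 and 218 in CIH 1 and 2, 289 in control 3 and 173 in CIH 3. The sum was lower in CIH in both table forms, with Derl1 the largest part of it. All 7 tested degradation genes were lower in CIH 3 than in control 3, where 63.6% of all genes were higher. Their changes ran from −0.01 for Sel1l and −0.04 for Herpud1, both near level, to −1.43 for Derl1. The median was −0.35, or −0.65 relative to all genes. The distance from the mean log2 of the chaperones to that of the degradation genes overlapped between groups in replicates 1 and 2, at 1.63 and 1.66 in the controls and 1.72 and 1.66 in CIH, and was 1.39 in control 3 and 1.88 in CIH 3.

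The translocon genes showed no call. Sec61a1, the channel subunit, was 35.0 and 35.4 FPKM in controls 1 and 2 and 34.6 and 34.6 in CIH 1 and 2, with an interval of −0.22 to 0.17 for the log2 change, and 63.3 and 82.7 in control 3 and CIH 3. Sec61b, a small subunit, was 16.0 and 20.0 FPKM in controls 1 and 2 and 23.6 and 19.4 in CIH 1 and 2, with overlapping groups (log2 change 0.24, adjusted p = 0.181; called without control 2, adjusted p = 0.0287), and 64.5 and 64.4 in the replicate 3 pair. Ssr1, a subunit of the translocon-associated protein complex, was 14.7 and 14.2 FPKM in controls 1 and 2 and 15.0 and 15.0 in CIH 1 and 2, and 14.6 and 24.8 in control 3 and CIH 3.

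Neighbouring lists give the wider pathway, and their counts stand against 20.2% of all genes that rose and 21.7% that fell. Of 15 other UPR regulators, 2 rose and 5 fell in replicates 1 and 2, with a median of −0.20 (over all genes −0.01). Tmbim6, an ER membrane protein that dampens IRE1, was 330.5 and 341 FPKM in controls 1 and 2 and 201 and 185 in CIH 1 and 2 (log2 change −0.80, limma adjusted p = 0.00135), and 351 and 147 in control 3 and CIH 3. Crebrf (−0.65, adjusted p = 0.00479) and the ATF6-like factor Creb3l2 (−0.53, adjusted p = 0.00292) fell, and Eif2s1, which encodes eIF2alpha, rose (0.50, adjusted p = 0.0107). Between control 3 and CIH 3, Creb3l2 (7.77 and 26.7 FPKM), Crebrf (84.8 and 92.5) and Eif2s1 (23.5 and 17.4) went opposite to their directions in replicates 1 and 2. Atf4, the factor through which PERK acts on Ddit3, was 111 and 119.8 FPKM in controls 1 and 2 and 137 and 127 in CIH 1 and 2, a change of 0.19 that did not pass the test (adjusted p = 0.16); it was named after its values were seen.

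While Ddit3 rose, targets of ATF4 and CHOP were more often lower: of 13 tested, 1 rose (7.69%) and 7 fell (53.8%, against 21.7% of all genes), with a median of −0.38. Between control 3 and CIH 3, 7 were higher and 6 lower, where 63.6% of all genes were higher. Their median was 0.08, or −0.23 relative to all genes. Ddit4, an inhibitor of mTORC1 that is also induced by hypoxia, went from 80.6 and 106.7 FPKM in controls 1 and 2 to 20.6 and 21.6 in CIH 1 and 2 (log2 change −2.09, limma adjusted p = 7.71e-05), and the replicate 3 pair gave 10.0 and 15.5. Ero1l, the oxidase that recharges the disulphide isomerases, fell from 169.97 and 150.7 to 66.2 and 64.0 FPKM (−1.29, adjusted p = 0.000162), with 65.4 in control 3 and 33.8 in CIH 3. Chac1, a glutathione-degrading enzyme, fell by 0.92 (adjusted p = 0.00034) and Vldlr, a lipoprotein receptor, by 0.79 (adjusted p = 0.000733); Chac1 was 23.1 in control 3 and 11.2 in CIH 3, and Vldlr 48.6 and 64.8, the opposite direction. The 1 target that rose was Atf5, a transcription factor, from 159 and 162 to 237 and 226 FPKM (0.52, adjusted p = 0.00572), with 67.8 in control 3 and 178 in CIH 3.

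Among 25 other folding enzymes, 5 rose and 5 fell, 20.0% each and near the shares of all genes (20.2% and 21.7%), with a median of −0.05. Those that rose most were Rcn1, a calcium-binding protein of the ER (0.77, limma adjusted p = 0.00146), Fkbp10, a prolyl isomerase that acts on collagen (0.77, adjusted p = 0.00101), and Serpinh1, the collagen chaperone HSP47 (0.53, adjusted p = 0.00664). Their values in the replicate 3 pair were 14.6 and 74.8, 22.5 and 71.3, and 50.5 and 254 FPKM in control and CIH, in the same direction. Fkbp9 fell by 0.51 (adjusted p = 0.00525) but had 152 FPKM in control 3 and 202 in CIH 3, the opposite direction. The list had a median of 0.73 in replicate 3, or 0.42 relative to all genes. Fibroblast markers were higher in CIH 3 and mostly higher in CIH 1 and 2, where Pdgfra and Ly6a fell. The part of these markers was not tested.

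Of 19 other degradation genes, 3 rose (15.8%) and 9 fell (47.4%, against 21.7% of all genes), with a median of −0.20. CIH 3 was higher than control 3 for 6 and lower for 13 (median −0.24), where 63.6% of all genes were higher. The ubiquitin-conjugating enzymes Ube2g2 (−0.56, limma adjusted p = 0.00355) and Ube2j1 (−0.49, adjusted p = 0.00455) and the lectin Erlec1 (−0.53, adjusted p = 0.00424) fell, and Aup1, which recruits Ube2g2, rose (0.49, adjusted p = 0.00967). Between control 3 and CIH 3, Ube2g2 (42.0 and 12.7 FPKM) and Ube2j1 (27.9 and 21.3) were also lower in CIH, while Erlec1 (24.4 and 48.1) and Aup1 (61.3 and 45.0) went the opposite way. Of 29 tested translocon, signal peptidase and glycosylation genes outside the module, 22 were not called in replicates 1 and 2. By limma 7 rose, 24.1% and near the 20.2% of all genes, and 0 fell, against 21.7% of all genes. At an unadjusted p under 0.05 in limma, 9 were higher and 1 lower, and the median change was 0.15. Dad1 and Ostc, subunits of the oligosaccharyltransferase, rose by 0.63 (adjusted p = 0.00246) and 0.44 (adjusted p = 0.0161), Sec11c, a signal peptidase subunit, by 0.61 (adjusted p = 0.015) and Sec61g, the third SEC61 subunit, by 0.58 (adjusted p = 0.00648). From control 3 to CIH 3, Ostc (33.1 and 57.9 FPKM) and Sec61g (111.1 and 204) were also higher in CIH, while Dad1 (48.96 and 26.5) and Sec11c (20.5 and 16.7) were lower.

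Of 18 genes of COPII coats and ER exit, 0 rose and 6 fell (33.3%) by limma (0 and 7 at an unadjusted p under 0.05), with a median of −0.11. The coat subunits Sec24d (−0.75, adjusted p = 0.000752) and Sec24b (−0.65, adjusted p = 0.00218) and the KDEL receptors Kdelr3 (−0.63, adjusted p = 0.00292) and Kdelr1 (−0.54, adjusted p = 0.00373), which return escaped chaperones to the ER, were those with the largest changes. Between control 3 and CIH 3, Sec24b was also lower in CIH (33.1 and 21.6 FPKM), while Sec24d (15.1 and 29.8), Kdelr3 (8.97 and 30.6) and Kdelr1 (66.9 and 83.7) were higher. Of 11 cytosolic heat shock genes, listed for contrast, 0 rose and 4 fell (36.4%) by limma (0 and 5 at an unadjusted p under 0.05), with a median of −0.14. Dnajb1 (−0.43, limma adjusted p = 0.0202), Hspa8 (−0.37, adjusted p = 0.0366), Hspa1b (−0.35, adjusted p = 0.0479) and Hsph1 (−0.32, adjusted p = 0.0276) were those that fell. From control 3 to CIH 3, Dnajb1 (19.1 and 11.8 FPKM) and Hspa8 (574 and 455) were also lower in CIH, Hsph1 was 18.5 and 18.6, and Hspa1b was 9.22 and 14.0, the opposite direction. Hspa1b has a near-identical copy, Hspa1a, with which it may share reads. The plot of lists shows these groups side by side.

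**Figure D4:**
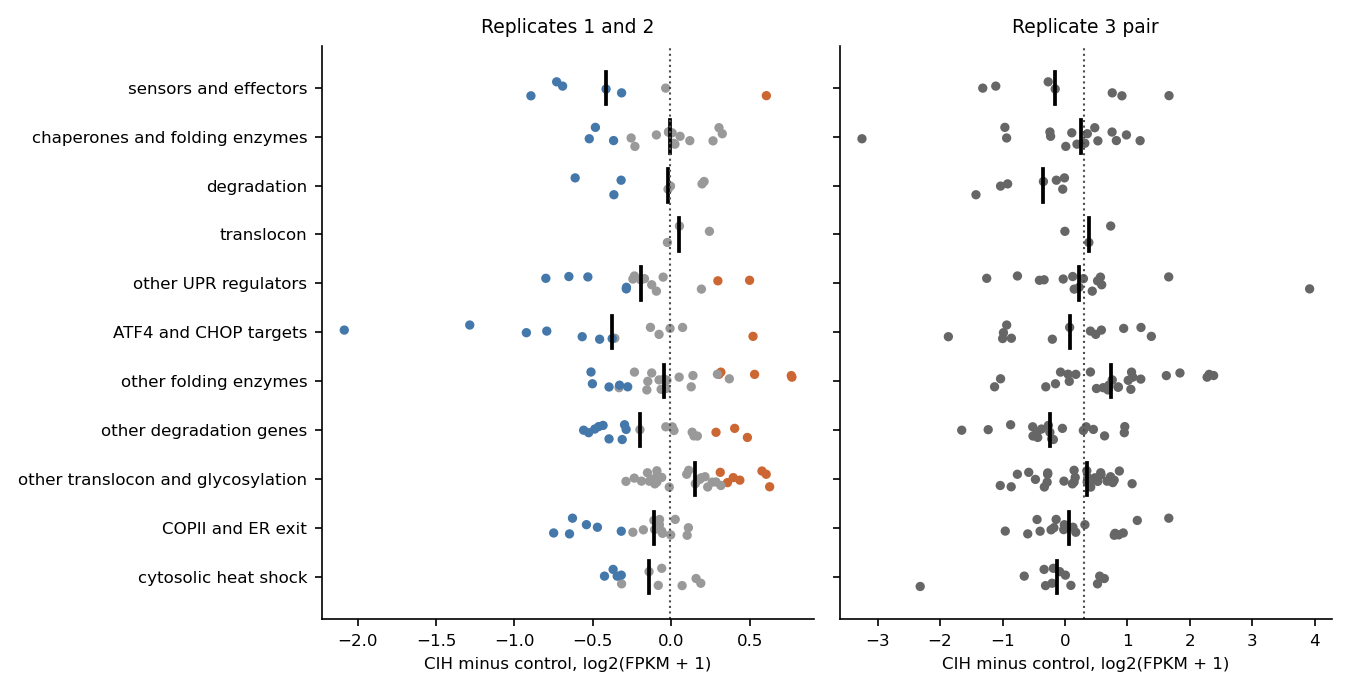
Log2 change of each tested gene, CIH minus control on the log2(FPKM + 1) scale, in the 4 role groups and 7 neighbouring lists. Left, replicates 1 and 2, with blue for genes that fell, orange for genes that rose and grey for the others; right, the replicate 3 pair, with no test. Black bars are list medians and dotted lines the medians of all genes (−0.01 and 0.31); the sensors and effectors and the ATF4 and CHOP targets have the lowest medians on the left, −0.42 and −0.38.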

How the data were processed

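Strand-marking libraries started from 1.3 µg of RNA, per the labels' protocols. The authors deposited FPKM values per gene; the unit was read from the values, since the file headers give sample names alone. The submitters' processing notes list GRCm38, featureCounts 1.5.0-p3 and DESeq 1.8.3 without roles; the sources used here do not name the aligner. In the gene tables, FPKM times exon length and a fitted factor gave whole fragments, within 0.05, for 98.5% to 98.7% of genes with few fragments. The factor of each library was the one that gave the highest share of whole values. Fragment numbers given here are estimates that rest on it. Median-of-ratios factors of these 4 tables were equal (1.0036), so the values were already on that scale. Repeated gene IDs of control 3 and CIH 3 were summed.

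Symbols, exon lengths and coordinates came from GENCODE M21. Genes averaging at least 1 FPKM in replicates 1 and 2 were tested with limma 3.58.1 (R 4.3.3, eBayes with trend) on log2(FPKM + 1), and the code was tested on simulated data. Tables and figures used Python 3.11.15. The planned test was limma, to be replaced by a count test had the deposited values been counts. Members, lists and roles were chosen with earlier results of these data known. The rule for named genes was the 3 sensors, Hspa5, Xbp1, Ddit3, up to 5 called members of each role with the largest change, and up to 4 called genes of each other list; values of further members are given so that each member is accounted for. Alternatives were other pseudocounts, filters, scalings, left-out libraries, a replicate block and fits of all 6 libraries.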

Additional observations from a re-analysis of the deposited data

Results flagged for a closer look

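For 8 members, both CIH libraries lay on one side of both controls in replicates 1 and 2 while CIH 3 lay on the other side of control 3; the difference between the 2 kinds of table was not tested. That is 24.2% of the 33 tested members, against 37.0% of 9845 tested genes listed in all 6 tables, a lower share than over all genes. Below both controls in replicates 1 and 2 but higher in CIH 3 were Ern1 (0.91 in the replicate 3 pair, on the log2(FPKM + 1) scale), Eif2ak3 (0.76), Dnajc10 (0.98), Txndc5 (0.82), Sec61a1 (0.38) and, by a margin near nil, Pdia4 (0.013). Above both controls but lower in CIH 3 were Syvn1 (−0.92) and Derl2 (−0.35). Relative to the median of all genes in that pair (0.31), Pdia4 is at −0.29 and Sec61a1 at 0.08.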

How the results depend on the processing

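Genes called numbered 4603. They were 2540 with no filter on low values, 2565 to 4591 with 1 library left out (lowest without CIH 1) and 4191 with a replicate block. In fits of all 6 libraries they were 0 with the group alone (490 at an unadjusted p under 0.05 by limma), 63 with a term for replicate 3 (2052) and 0 with a replicate block (1123). Same-numbered deviations correlated at −0.13 in replicates 1 and 2, so the numbers were not taken to pair libraries; over all 6 libraries they correlated at 0.529 to 0.587, which follows the 2 kinds of table. With the replicate block on replicates 1 and 2, members called stayed 1 higher and 11 lower. Members called higher were 2 with scaling by totals, 4 with upper-quartile scaling, 2 with no trend and 1 to 3 with 1 library left out (2 without CIH 2, 3 without control 2). Members called lower were 5 with no filter and 6 to 10 with 1 library left out (6 without CIH 2, 7 without CIH 1). In the 3 fits of all 6 libraries limma called 0 members in either direction, with 1, 7 and 4 at an unadjusted p under 0.05 for the group alone, the replicate 3 term and the block. In those 3 fits Eif2ak3 was at 0.041 and Txndc5 at 0.029, reversed, while Xbp1 (−0.83), Ddit3 (0.96), Dnajb9 (−1.43), Pdia6 (−0.64) and Derl1 (−0.72) were farther from 0 than in replicates 1 and 2 alone but not called, and Ern1, Atf6, Ppp1r15a, Sel1l and Edem2 were nearer 0 and not called. Hspa5 reversed to −0.062 (totals), −0.036 (without control 2) and −0.086 (without CIH 1), with −0.086 to 0.114 over the 4 libraries left out in turn. The members' median in the replicate 3 pair, −0.308 relative to all genes, was −0.344 with a pseudocount of 0.1, −0.001 as deposited, 0.161 with scaling by totals (−0.295 relative to all genes) and −0.435 by median of ratios. Apart from the fits with fewer or more libraries and the filter, which change what is tested, the cause was not tested. Of 195 alternative values for 13 named members, 135 kept direction and call, 51 lost the call and 9 reversed. The 135 include those scaled by the median of ratios, whose outcome was fixed because the factors of the 4 libraries were equal. They also include values of Hspa5, which was not called in any fit. Of the 9 reversed values, those of Eif2ak3 and Txndc5, in the fits of all 6 libraries, lost the call as well. With 2 libraries a group, replication limits the precision.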
